A study of Mus musculus with 16 samples.

Results

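Rapamycin-treated Ccm3-deficient brain endothelial cells (KO+R) were compared with untreated Ccm3 wild-type cells (WT) to ask which differences from WT remained after the treatment and which were new. The comparison used the 3 KO+R and the 3 WT libraries, 6 of the 16 RNA-seq libraries of the series, chosen by their labels and paired by biological replicate number. All cells were mouse brain microvascular endothelial cells (mBMEC) from adult Cdh5(PAC)-CreERT2/Pdcd10 fl/fl mice 8 to 10 weeks old. Each culture was pooled from several brains, selected with puromycin and used at passage 2. KO cells had received 4-hydroxytamoxifen (4-OHT) to activate the Cre recombinase, which is expressed from an endothelial promoter, and WT cells carried the same alleles without 4-OHT, so loss of the gene and exposure to 4-OHT cannot be told apart. KO+R cells were KO cells given 100 nM rapamycin for 24 h. A vehicle for the untreated cells was not given in the sources used here. The 3 untreated KO, 2 WT+R (100 nM rapamycin, 24 h), 2 WT+P and 3 KO+P (10 µM propranolol, 24 h) libraries were used to place the members of the comparison. They were also fitted in the same model, so they took part in the filter, scaling, spread and replicate block behind each test.

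CCM3, encoded by Pdcd10, is a scaffold protein of the cerebral cavernous malformation complex. In endothelium, loss of this complex is known to raise MEKK3 signalling and the transcription factors KLF2 and KLF4, and to disturb junctions and matrix. Rapamycin binds FKBP12 and inhibits mTORC1, a kinase complex that promotes protein synthesis, glycolysis and growth and holds back autophagy.

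The WT libraries held between 22209690 and 26203339 counts and the KO+R libraries between 20268607 and 25030982. Levels are CPM, read counts scaled to a common library size. A gene was called when edgeR's quasi-likelihood test with the replicate number as a block gave a Benjamini-Hochberg adjusted p under 0.05 and the fold change was above 1.5, over 14838 tested genes. Summed over 26 endothelial identity genes, the level was 18702 to 23798 CPM in WT and 22015 to 23880 CPM in KO+R libraries. The sum of 13 mural cell markers ranged from 109 to 847 CPM in WT and from 309 to 466 CPM in KO+R libraries, and that of 10 fibroblast markers from 21.0 to 99.5 and from 6.83 to 203 CPM. Of the 13 microglia and macrophage markers, 11, including Aif1, C1qa, Cx3cr1 and Ptprc, stayed under 0.5 CPM in all 6 libraries. The part of other cell types in the results was not tested, and in bulk RNA fewer cells of a type and less RNA per cell cannot be told apart.

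Pdcd10 was measured at 11.5, 31.2 and 47.0 CPM in WT replicates 1 to 3, and at 8.37, 7.83 and 9.53 CPM in the KO+R libraries. The untreated KO libraries held 9.72, 11.0 and 9.73 CPM. The library labelled WT replicate 1 was thus near the KO level, unlike the WT+R library of the same number at 52.0 CPM, and this went against its label. The groups did not overlap, and Pdcd10 was lower in KO+R than in WT by a log2 fold change of -1.78 (SE 0.41, adjusted p = 0.0197, edgeR's quasi-likelihood test). Without WT replicate 1 the difference was -2.26 (adjusted p = 0.000905, edgeR), whereas leaving out any other single library gave -1.80 to -1.32 (adjusted p = 0.0642 to 0.109). Reads from exons outside the floxed part still count toward the gene. Where the loss of this library ended the call of a gene described below, this is said beside it.

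The KO+R cells differed from WT cells in 1026 genes (6.91% of those tested), 462 higher (3.11%) and 564 lower (3.8%). Without WT replicate 1 the count was 876, and 735 of those were among the 1026. Other libraries weighed more: the count was 527 without KO+R replicate 3, 585 without WT replicate 3, 265 without replicate number 3 and 75 without replicate number 2. Without the replicate block it was 373, all among the 1026. Fitted on the 6 KO+R and WT libraries alone it was 840, with 695 among the 1026. Of 136 named genes called, 26 were not called without WT replicate 1, 41 without KO+R replicate 3, 38 without WT replicate 3, 70 without replicate number 3, 108 without replicate number 2 and 66 without the block. Apart from those of WT replicate 1, such losses are given beside some genes only. Over 20 alternative fits, for example, Sesn2 lost its call in 11, Pgf and Adm in 10 and Tnc in 9. With the same model and the same WT libraries, untreated KO cells differed from WT in 27 genes (0.182%). KO+R and untreated KO cells differed in 739 genes (4.98%). A gene was counted as kept when it was called between KO+R and WT, already differed over 1.5-fold the same way between KO and WT, and was not called between KO+R and KO. It was counted as new when KO and WT were within 1.5-fold and KO+R was called against both. By these definitions 270 genes were kept, 117 higher and 153 lower, and 347 were new, 164 higher and 183 lower. Of the 270 kept genes, 9 were also called between KO and WT and 217 had an unadjusted p under 0.05 there by edgeR, so the earlier difference of most was a fold without a call. Kept also does not mean that KO+R and KO were alike, since a missed call between them does not show this. A further 61 genes were enlarged, with a difference of KO that grew with rapamycin, and 22 crossed, from over 1.5-fold on one side of WT to the other. Only 2 enlarged genes and 1 crossed gene were also called between KO and WT, and 43 and 18 had an unadjusted p under 0.05 there by edgeR. For most of these genes, too, the earlier difference was a fold without a call. The remaining 326 called genes were within 1.5-fold in KO but not called between KO+R and KO, and no gene was called with a reduced difference. Since all of these comparisons use the same WT or KO libraries, the classes describe levels side by side and are not independent counts. The difference between KO+R and WT had a median size of 1.52 (log2) for kept and 1.07 for new genes, against 0.94 and 0.17 between KO and WT. Both classes required a call between KO+R and WT but none between KO and WT, so these sizes follow in part from the definitions. They do not show that rapamycin enlarged the kept differences.

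**Figure D1:**
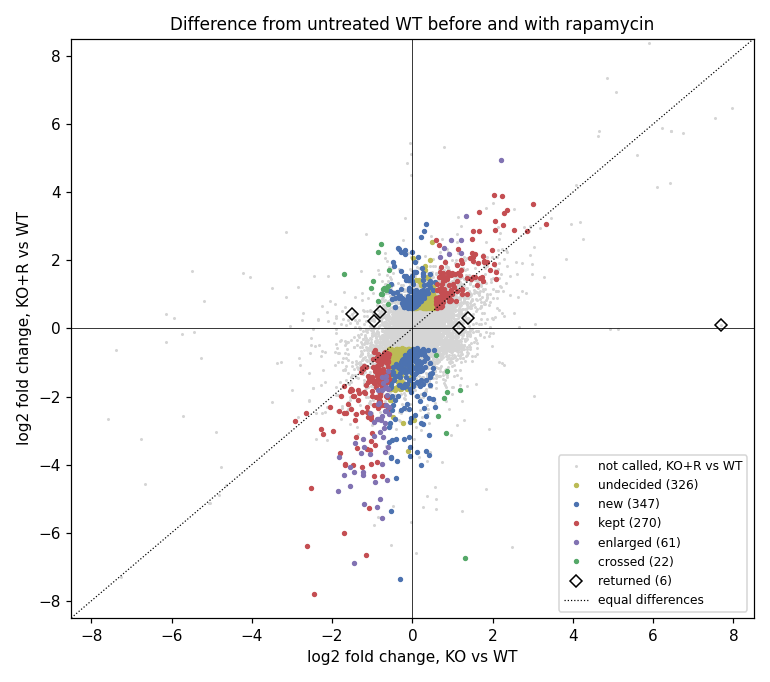
Log2 fold change of KO+R against WT (y axis) and of KO against WT (x axis) for each tested gene, coloured by class. Kept genes (270) lie over 1.5-fold from WT on the same side in both comparisons, mostly beyond the dotted line of equal differences (median size 1.52 in KO+R and 0.94 in KO), new genes (347) along the vertical axis, crossed genes (22) in the opposite quadrants, and the 6 returned genes near the horizontal axis, while 5 genes lie outside the axes. Kept and new genes were chosen on the call of KO+R against WT, so these positions follow in part from the definitions.

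The 27 genes that separated untreated KO from WT cells divided with rapamycin. In KO+R cells 11 were still called the same way, 1 was called the opposite way and 15 were not called. The 11 included Xdh, the xanthine dehydrogenase of purine breakdown, Clic5, a chloride intracellular channel protein, the intermediate filament gene Synm and the kinase gene Aatk, all higher than WT, and the phosphatase gene Ptprr. The lower ones included Lamb1, the beta1 chain of laminin, the cytoskeletal gene Dpysl3, Glipr2, Ilvbl, Arxes2 and the acetylcholine receptor subunit gene Chrnb1. Xdh stood at 2.53, 1.34 and 2.99 CPM in WT, at 7.20, 8.69 and 19.5 CPM in KO and at 10.4, 20.3 and 25.8 CPM in KO+R libraries. Every KO+R library was above every WT library, by a log2 fold change of 3.03 (SE 0.33, adjusted p = 0.000373, edgeR). Lamb1 stood at 408, 354 and 515 CPM in WT, at 187, 211 and 159.9 CPM in KO and at 256, 174 and 171 CPM in KO+R libraries. Its KO+R level was lower than in WT by -1.12 (log2, SE 0.20, adjusted p = 0.00597, edgeR), with no overlap between the groups, and its difference between KO+R and KO was 0.09. Clic5 overlapped, at 13.8, 18.7 and 7.01 CPM in WT and 17.5, 59.3 and 42.6 CPM in KO+R libraries, and it was called through the pairs of the same number (1.44, SE 0.34, adjusted p = 0.0208, edgeR). Among the 15 genes no longer called, 9 did not meet the definition of returned: Atp8a1, Dusp3, Foxc1, Hlx, Mylk, Rundc3a, St6galnac4, Stard8 and Wdr62. Their KO+R differences from WT lay between -0.11 for Foxc1 and 0.57 for Atp8a1 on the log2 scale. For Atp8a1, Rundc3a, Mylk, St6galnac4 and Hlx the adjusted p was still under 0.05 (0.00779 to 0.0497, edgeR), and these 5 missed the call only by the 1.5-fold threshold.

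**Figure D2:**
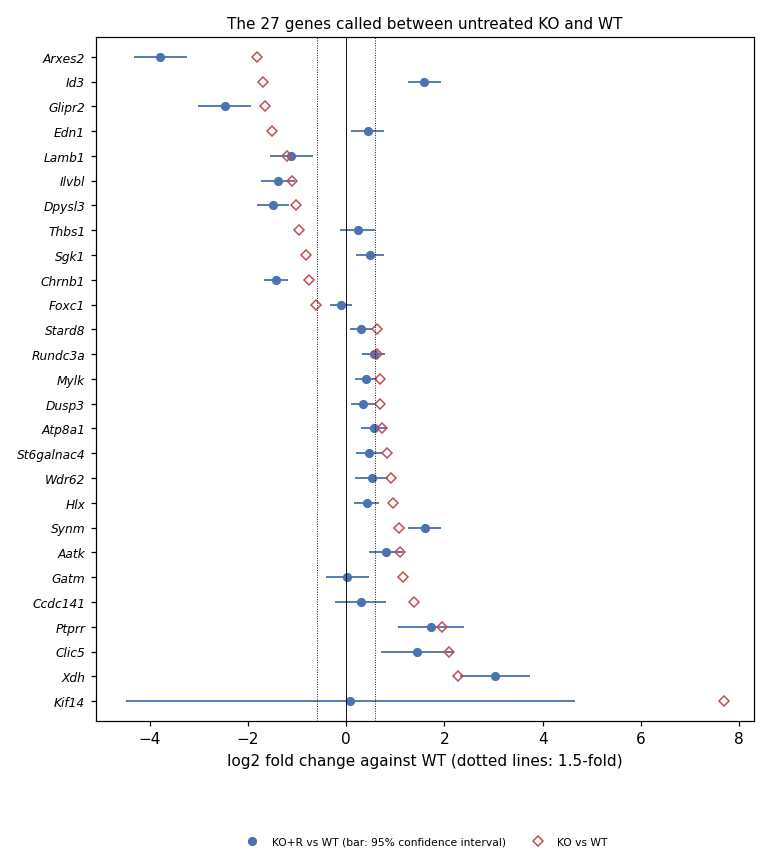
Log2 fold change against WT of the 27 genes called between untreated KO and WT, for KO (open diamonds) and KO+R (circles with 95% confidence intervals), ordered by the KO value. Xdh, Lamb1 and 9 others stayed over 1.5-fold from WT on the same side, Id3 moved to the other side, and the interval of Kif14 spans -4.49 to 4.66.

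Kept differences were set beside libraries outside both contrasts, the 3 KO+P and 2 WT+P libraries. These carry the same replicate numbers and were fitted in the same model, so they are not an independent check. Of the 270 kept genes, 262 (97.0%) had the same direction between KO+P and WT+P, against 60.0% of all tested genes with the direction of their KO+R difference from WT. Over 1.5-fold the same way were 193 kept genes (71.5%), against 11.3% of all tested genes and 31 of the 347 new genes (8.93%). Kept genes were chosen as over 1.5-fold and new genes as within 1.5-fold between KO and WT. The gap between the classes thus follows in part from their definitions. Among the kept genes with the largest differences, by the naming rule, were Hs3st3b1, a heparan sulfate sulfotransferase, the tight junction claudin Cldn1, the phosphatase Dusp9 and Glipr2, all lower, and Xdh and the bradykinin receptor Bdkrb2, both higher. Pde1a, a cyclic nucleotide phosphodiesterase, also met the definition, but with 840 counts over the WT, 400 over the KO and 35 over the KO+R libraries its log2 difference was -0.95 in KO and -4.35 in KO+R (adjusted p = 0.0232, edgeR), and KO+R and KO differed by -3.39 without a call (adjusted p = 0.0743). Cldn1 fell from 28.4, 36.0 and 44.9 CPM in WT to 5.98, 9.47 and 3.65 CPM in KO+R libraries, with 12.5, 26.3 and 8.22 CPM in KO. The log2 fold change was -2.69 (SE 0.37, adjusted p = 0.00148, edgeR), and its direction and call held in each of the 20 alternative fits. Ceacam1, a cell adhesion molecule, rose from 20.9, 36.0 and 12.4 CPM to 44.2, 119 and 216 CPM, with 45.6, 71.5 and 109 CPM in KO, a log2 fold change of 2.10 (SE 0.47, adjusted p = 0.0177, edgeR). Dpysl3, which binds microtubules, was measured at 274, 382 and 387 CPM in WT, 152, 226 and 147 CPM in KO and 123, 142 and 109 CPM in KO+R libraries. It was lower by -1.49 (log2, SE 0.15, adjusted p = 0.000272, edgeR), and no KO+R library reached the WT range.

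Some genes of glycolysis and the hypoxia response were lower in KO+R than in WT. Of 31 tested members, 10 were called lower and 1 higher in KO+R cells, against 3.8% and 3.11% of all genes, and 26 had a negative difference. No member was called between KO and WT by edgeR. The median log2 fold change of the list was -0.67 in KO+R and -0.49 in KO against WT, -0.12 between KO+R and KO and -0.15 in WT+R against WT, while the median over all tested genes was -0.03 in KO+R. Without WT replicate 1, 4 members were called lower (median -0.56). The other single libraries left between 2 (without KO+R replicate 3) and 14 (without WT replicate 2), and without replicate number 3 none was called (median -0.55). The count thus rested on few libraries, while the median stayed negative in each of these fits. Called lower and kept were Egln3, an oxygen-sensing prolyl hydroxylase, the vasodilator peptide gene Adm, the triosephosphate isomerase Tpi1, the phosphoglycerate kinase Pgk1, the lactate dehydrogenase Ldha, the collagen prolyl hydroxylase P4ha1, the enolase Eno1 and Ankrd37. Pkm, the pyruvate kinase, was new, and the mutase Pgam1 was called but not classed as kept or new.

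The bases before the start of the main transcript are shown for Pgk1 and Egln3, 2 kept members whose windows hold the letters ACGTG, the core bound by hypoxia-inducible factors. Each window is the 250 bases upstream of the transcript start in GRCm39, 5′ to 3′ on the strand of the gene, with ACGTG or its reverse complement in capitals. Overlap of the windows with annotated exons was not tested. The Pgk1 window is chrX:105230456-105230705 on the plus strand and the Egln3 window is chr12:54250674-54250923 on the minus strand.
Pgk1: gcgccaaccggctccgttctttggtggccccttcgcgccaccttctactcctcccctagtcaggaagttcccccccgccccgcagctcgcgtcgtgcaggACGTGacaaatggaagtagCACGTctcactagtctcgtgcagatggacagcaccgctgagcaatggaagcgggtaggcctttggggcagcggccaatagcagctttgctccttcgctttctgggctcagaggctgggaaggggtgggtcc
Egln3: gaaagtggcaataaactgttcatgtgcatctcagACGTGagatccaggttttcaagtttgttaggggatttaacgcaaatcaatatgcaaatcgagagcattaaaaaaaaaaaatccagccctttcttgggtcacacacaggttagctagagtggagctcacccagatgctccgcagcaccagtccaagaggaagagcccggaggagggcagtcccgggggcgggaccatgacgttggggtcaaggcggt
ACGTG on either strand occurred in 5 of the 10 members called lower (Ankrd37, Egln3, Ldha, Pgam1 and Pgk1), in 14 of the 31 tested members and in 19.8% of the windows of all tested genes. A match is a description of letters and not of binding.

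Pgk1 was measured at 916, 752 and 792 CPM in WT, 564, 558 and 446 CPM in KO and 477, 543 and 415 CPM in KO+R libraries. The KO+R libraries lay below all WT libraries and beside the KO libraries, at -0.78 (log2, SE 0.14, adjusted p = 0.00612, edgeR). Egln3 stood at 131, 57.1 and 82.8 CPM in WT and at 29.3, 34.3 and 16.7 CPM in KO+R libraries, with 46.5, 35.1 and 16.9 CPM in KO. Its difference was -1.78 (SE 0.40, adjusted p = 0.017, edgeR), and without WT replicate 1 it was -1.65 (adjusted p = 0.0571). Eno1, at 2279.8, 1439 and 1707 CPM in WT and 1298, 1088 and 901 CPM in KO+R libraries, differed by -0.72 (adjusted p = 0.0473) and was not called without WT replicate 1. Pkm shares 40.6% of its exonic bases with another annotated gene, which unstranded counts cannot separate, and went from 3192, 2232 and 3176 to 1163, 1228 and 1136 CPM. Ndrg1, a stress-response gene, was the member called higher, at 301, 52.1 and 72.9 CPM in WT and 405, 257 and 305 CPM in KO+R libraries (1.55, SE 0.36, adjusted p = 0.0214, edgeR), and its call was lost in 10 of 20 alternative fits. Tpi1, Ankrd37, Ldha and P4ha1 were likewise not called without WT replicate 1, and Adm, Tpi1, Ankrd37, Ldha, Pgam1 and Ndrg1 also share over 10% of their exonic bases with another gene.

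**Figure D3:**
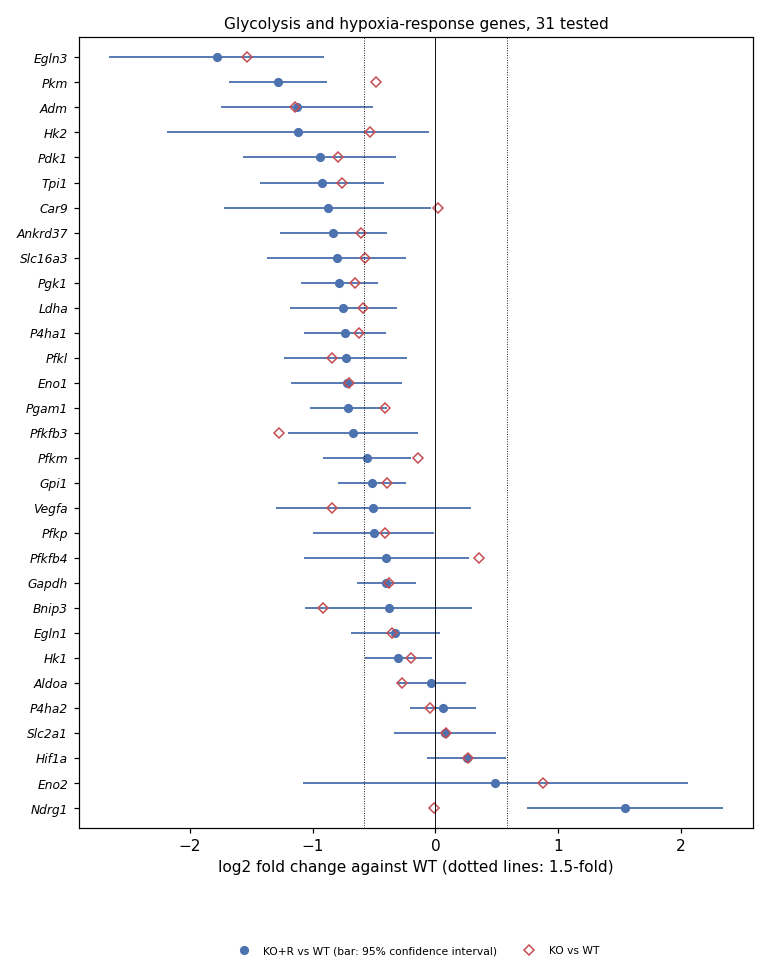
Log2 fold change against WT of the 31 tested genes of glycolysis and the hypoxia response in KO (open diamonds) and KO+R cells (circles with 95% confidence intervals). The KO+R value lies left of 0 for 26 genes and right of 0 for 5, of which Ndrg1 lies farthest at 1.55.

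Klf4, which encodes one of these transcription factors, was higher in KO+R than in WT and met the definition of kept, although it was not called between KO and WT (1.52, adjusted p = 0.104, edgeR). It was measured at 68.5, 106 and 28.5 CPM in WT, 149, 193 and 219 CPM in KO and 112, 219 and 233 CPM in KO+R libraries. The lowest KO+R library was above the highest WT library, and the log2 fold change was 1.5 (SE 0.39, adjusted p = 0.0309, edgeR), with -0.02 between KO+R and KO. The call was lost in 9 of 20 alternative fits, which gave 0.91 to 1.93 (adjusted p up to 0.214), among them those without WT replicate 3, KO+R replicate 2 or KO+R replicate 3. Klf2 stood at 269, 276 and 82.8 CPM in WT and 414, 482 and 581 CPM in KO+R libraries, a difference of 1.26 (95% confidence interval 0.34 to 2.19) that missed the threshold (adjusted p = 0.0812, edgeR). Of the 22 tested genes of the KLF2/4 axis and its targets, 4 were called higher and 3 lower (3.11% and 3.8% of all genes), with 4 and 1 without WT replicate 1. Higher beside Klf4 were Slco2a1, a prostaglandin transporter whose libraries overlapped, Heg1, the transmembrane partner of the CCM complex, and the transcription factor gene Mef2a. Heg1 rose from 736, 777 and 497 to 1405, 2338 and 2307 CPM (1.47, SE 0.41, adjusted p = 0.0441, edgeR), with 762, 944 and 1108 CPM in KO, and the call was lost in 10 of 20 alternative fits (adjusted p up to 0.288). The 3 lower genes were proteases of versican and aggrecan, all at or above the WT level in KO. Adamts4 went from 50.0, 50.6 and 42.9 CPM in WT to 6.35, 13.7 and 16.0 CPM in KO+R, with 60.8, 76.5 and 70.7 CPM in KO (-2.09, SE 0.27, adjusted p = 0.000978, edgeR). Adamts5 (-1.25, adjusted p = 0.0174) and Adamts9 (-1.32, adjusted p = 0.0368) were not called without WT replicate 1, at adjusted p = 0.0626 and 0.117.

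Other targets of this axis were not called in KO+R cells. Adamts1 was measured at 156, 88.2 and 67.3 CPM in WT, 227, 180.5 and 248 CPM in KO and 59.5, 64.7 and 115 CPM in KO+R libraries. The KO+R and WT libraries overlapped, with a difference of -0.39 (95% confidence interval -1.15 to 0.38). Nos3, the endothelial nitric oxide synthase, stood at 600.4, 875 and 418 CPM in WT, 869, 1197 and 1300.3 CPM in KO and 404, 780.2 and 756 CPM in KO+R libraries. Its difference from WT was -0.03 (95% confidence interval -0.70 to 0.64), and 32.7% of its exonic bases are shared with another gene. Neither interval excludes a 1.5-fold difference. For these genes KO+R and KO differed by -1.46 for Adamts1 (adjusted p = 0.0299) and -0.85 for Nos3 (adjusted p = 0.12, edgeR).

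Matrix genes were called in both directions, 5 higher and 7 lower of 36 tested (3.11% and 3.8% of all genes), with 5 and 5 without WT replicate 1. Tnc, the tenascin C of remodelling matrix, was kept at 421, 557 and 621 CPM in WT, 324, 326 and 223 CPM in KO and 357, 177 and 194 CPM in KO+R libraries (-1.18, SE 0.31, adjusted p = 0.0312, edgeR). Lama5, a laminin chain of mature basement membrane, was kept on the higher side, at 208, 197 and 169 CPM in WT and 284, 499 and 580.3 CPM in KO+R libraries, with 269, 337 and 433 CPM in KO (1.16, SE 0.20, adjusted p = 0.00505, edgeR). The 2 laminin chains named here, Lamb1 and Lama5, thus differed from WT in opposite directions in the same libraries. Mmp25 (-1.58) and Col27a1 (-1.28) were also kept and lower, and Thbs2 (1.52) was kept and higher. Thbs2 libraries overlapped, and neither Thbs2 nor Col27a1 was called without WT replicate 1. Bambi, a decoy receptor that restrains TGF-beta and BMP signals, was kept and lower, from 49.2, 31.8 and 46.5 to 21.6, 6.81 and 9.58 CPM (-1.82, adjusted p = 0.0282, edgeR), and without WT replicate 1 the adjusted p was 0.064. The netrin receptor Unc5b was kept at -1.03 and the placental growth factor Pgf at -0.96. Egfr was kept at a low level, from 2.16, 6.76 and 3.20 to 0.635, 1.68 and 1.2 CPM (-1.72, adjusted p = 0.00501, edgeR).

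By the definition used, 6 genes returned: each was called between KO and WT, was called the other way between KO+R and KO, and lay within 1.5-fold of WT in KO+R without a call. Only the 27 genes called between KO and WT could meet this definition. Kept genes needed only a 1.5-fold difference there, so the 6 returned and 270 kept genes cannot be compared as shares reverted and not reverted. Edn1, the vasoconstrictor endothelin 1, was measured at 542, 366 and 531 CPM in WT, 263, 134 and 133 CPM in KO and 975, 534 and 514 CPM in KO+R libraries. KO+R and WT libraries overlapped, and the difference was 0.44 (95% confidence interval 0.09 to 0.78, adjusted p = 0.105, edgeR). Thbs1, the matrix protein thrombospondin 1, stood at 3095, 2987 and 3796 CPM in WT, 1928, 1686 and 1516 CPM in KO and 4689, 3672 and 3355 CPM in KO+R libraries. The difference from WT was 0.23 (95% confidence interval -0.12 to 0.58, adjusted p = 0.404, edgeR). Sgk1, a kinase downstream of mTORC2, went from 155, 121 and 172 CPM in WT and 92.7, 76.4 and 82.5 CPM in KO to 254, 169.8 and 209 CPM in KO+R libraries. Its 0.49 above WT had an adjusted p of 0.0356 (edgeR) and lay within 1.5-fold. These 3 genes share 22.5%, 11.1% and 14.4% of their exonic bases with other genes. Gatm, of creatine synthesis, and Ccdc141 came down, with KO+R differences from WT of 0.02 (95% confidence interval -0.41 to 0.46) and 0.30 (-0.22 to 0.81). The mitotic kinesin gene Kif14 held 1 count over the 3 WT and 1 over the 3 KO+R libraries and 286 over the KO libraries, of which KO replicate 1 had 0, so no fold between KO+R and WT is given. It held 0 and 86 counts in the WT+P, 0 and 81 in the WT+R and 0, 58 and 52 in the KO+P libraries. Its counts thus ranged widely within groups, with rapamycin too, and its place among the returned genes is weak. An interval that includes 0 does not show that these genes were at the WT level.

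Several ID genes and inhibitory SMADs were higher in KO+R than in WT. ID1, ID2 and ID3 are inhibitory partners of basic helix-loop-helix factors and direct outputs of BMP signalling, and SMAD6 and SMAD7 are inhibitors induced by the same pathway. Of 12 tested ID genes and inhibitory SMADs, 5 were called higher and 1 (Bambi) lower in KO+R against WT, against 3.11% and 3.8% of all genes. Over the alternative fits between 2 members (without replicate number 2) and 6 were called higher. The list median was 1.27 in KO+R and -0.18 in KO against WT, and 1.46 in WT+R against WT. Id3 stood at 96.7, 94.9 and 104 CPM in WT, 37.1, 28.1 and 27.5 CPM in KO and 355, 269 and 279 CPM in KO+R libraries. It was below WT in every KO library and above WT in every KO+R library, with a log2 fold change of 1.59 against WT (SE 0.15, adjusted p = 0.000218, edgeR) and 3.29 against KO. Smad6 was new, from 54.4, 52.3 and 41.2 CPM in WT and 48.6, 37.2 and 42.8 CPM in KO to 242, 281 and 216 CPM (2.31, SE 0.26, adjusted p = 0.000502, edgeR). Smad7 followed the same pattern, from 18.8, 21.3 and 19.5 to 57.2, 61.6 and 55.7 CPM (1.55, SE 0.10, adjusted p = 2.88e-05, edgeR). Id1 rose from 125, 105 and 74.5 to 329, 313 and 312 CPM (1.63, SE 0.26, adjusted p = 0.00344, edgeR). Id2 was called at a low level (1.02, adjusted p = 0.0431) and not without WT replicate 1. The GC-rich letters GGCGCC, a motif bound by BMP SMADs, were in the 250-base window of none of the 5 higher genes and in 12.0% of all windows, while ACGTG was in 3 of the 5. Id1, Id2 and Id3 share 13.7%, 36.2% and 11.8% of their exonic bases with other genes.

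Of the 30 tested BMP and TGF-beta ligands and receptors, 2 were called higher and 3 lower (3.11% and 3.8% of all genes). Bmp2, a BMP ligand, had the largest fall among well-measured genes of this pathway, from 201, 109.8 and 278 CPM in WT and 91.6, 57.4 and 55.8 CPM in KO to 8.10, 8.37 and 6.91 CPM in KO+R. The log2 fold change was -4.63 (SE 0.45, adjusted p = 0.000233, edgeR), and the same call was made in all 20 alternative fits. Smad1, a signal SMAD of BMP receptors, fell from 288, 183 and 232 to 97.3, 59.5 and 88.6 CPM (-1.52, SE 0.09, adjusted p = 2.34e-05, edgeR), and was at 291, 178 and 206 CPM in KO. Inhbb, an activin subunit gene, was lower by -1.30 (adjusted p = 0.038) with overlapping libraries, and it was not called without WT replicate 1. The co-receptor gene Eng rose from 1770.4, 1851 and 1929 to 4012, 3497 and 3968 CPM (1.05, SE 0.17, adjusted p = 0.0036, edgeR) and the type II receptor gene Bmpr2 from 151, 127 and 142 to 243, 268 and 253 CPM (0.86, SE 0.15, adjusted p = 0.00447, edgeR). Both were at the WT level within 0.1 on the log2 scale in KO.

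**Figure D4:**
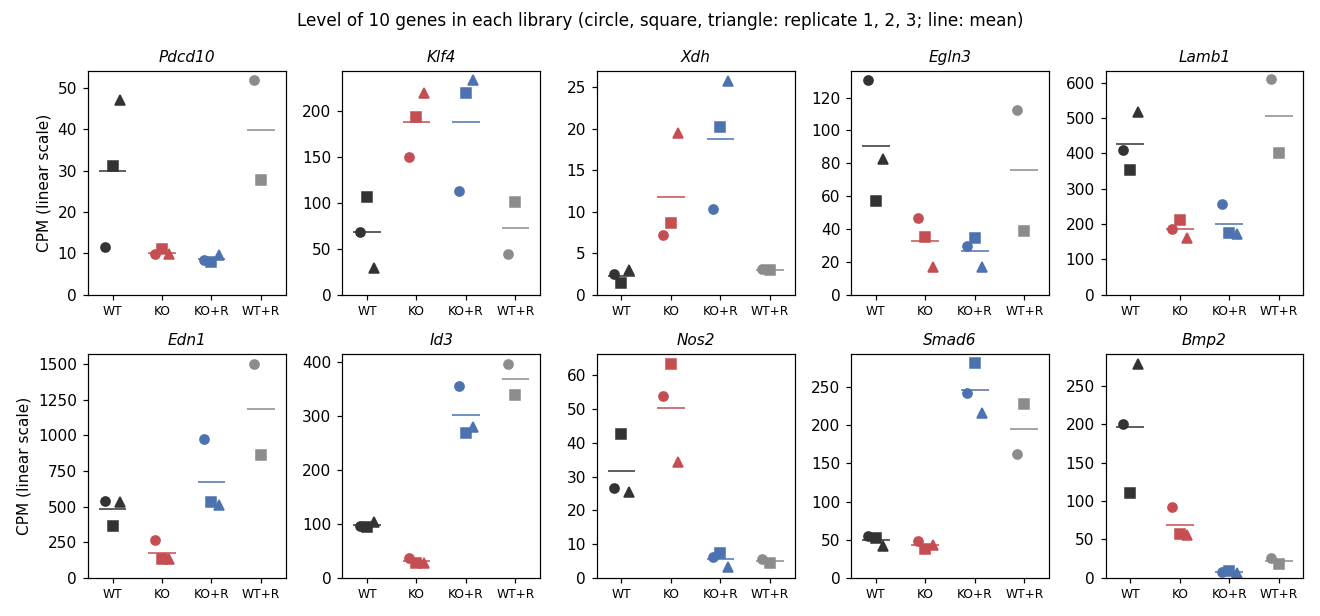
CPM of 10 genes in each WT, KO, KO+R and WT+R library (linear axes from 0; circle, square and triangle are replicates 1, 2 and 3, and the line is the mean). Klf4, Egln3 and Lamb1 have KO+R levels beside KO, and Xdh lies above KO for each replicate number, without a call between KO+R and KO. Edn1 lies near WT, Id3 and Nos2 lie beyond WT on the other side from KO, and Smad6 and Bmp2 differ from both.

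The other crossed genes ran in both directions, and of the 22 crossed genes 14 were higher and 8 lower than WT in KO+R. Id3 was the only crossed gene also called between KO and WT. Nos2, the inducible nitric oxide synthase, stood at 26.7, 42.7 and 25.5 CPM in WT, 53.9, 63.3 and 34.2 CPM in KO and 6.30, 7.22 and 3.12 CPM in KO+R libraries. It was lower than WT by -2.58 (log2, SE 0.26, adjusted p = 0.000272, edgeR), and this held in all 20 alternative fits. Slco4a1, an organic anion transporter, fell from 119.6, 28.3 and 25.9 to 23.7, 8.82 and 12.1 CPM against 182, 82.1 and 84.4 CPM in KO (-1.80, adjusted p = 0.00639, edgeR). The protocadherin gene Pcdh12 (-2.04) and the Rap1 activator gene Rasgrp2 (-1.87) were likewise above WT in KO and below it in KO+R, and Pcdh12 was not called without WT replicate 1 (adjusted p = 0.117). The complement factor gene Cfi crossed at a low level, from 0.414, 0.523 and 0.738 to 2.86, 2.91 and 3.03 CPM (2.49, SE 0.45, adjusted p = 0.00579, edgeR). Of 20 tested YAP targets, 1 was called higher and 2 lower (3.11% and 3.8% of all genes). The higher one, Ccn2, crossed, at 0.79 above WT, with no call without WT replicate 1.

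Leukocyte adhesion genes and chemokines were called in 1 direction, with 6 of 20 tested genes higher in KO+R than in WT and none lower (3.11% and 3.8% of all genes), and 4 without WT replicate 1. The list median was 1.10 in KO+R, -0.22 in KO and 1.12 in WT+R against WT. Icam1, which binds leukocyte integrins, was new, from 29.8, 97.6 and 72.7 CPM in WT and 36.2, 98.2 and 123 CPM in KO to 597, 398 and 436 CPM (3.06, SE 0.50, adjusted p = 0.00364, edgeR). The chemokine gene Cxcl12 crossed, from 438, 511 and 572 CPM in WT and 282, 398 and 313 CPM in KO to 1086, 1408 and 1111 CPM (1.24, SE 0.22, adjusted p = 0.00532, edgeR). Vcam1 also crossed, at 136, 254 and 169 CPM in WT and 663, 420.0 and 253 CPM in KO+R libraries, which overlapped narrowly (1.19, adjusted p = 0.0258), and it lost the call without WT replicate 1, at adjusted p = 0.0802. The membrane chemokine genes Cxcl16 (1.67) and Cx3cl1 (1.17) and the chemokine scavenger gene Ackr4 (2.23) completed the 6. Ackr4 was not called without WT replicate 1, and Cxcl16 shares 84.8% of its exonic bases with another gene. Ptprc, the pan-leukocyte gene, was under 0.5 CPM in all 6 libraries.

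The largest new falls, by the naming rule, were in Duox2, an oxidase that makes hydrogen peroxide, the long non-coding RNA gene Gm15681, the somatostatin receptor Sstr2, the peptidase Dpp4, the synaptic scaffold gene Dlgap3, the chloride channel regulator Clca2, the amino acid transporter Slc38a3 and the sodium pump modulator Fxyd6. Duox2 had 261 counts over the 3 WT and 1 over the 3 KO+R libraries, a depth-scaled ratio of 247 with a 95% counting interval of 43.9 to 9785. The untreated KO libraries held 226 Duox2 counts. Dlgap3 went from 28.2, 15.2 and 17.4 CPM in WT and 24.2, 17.9 and 15.5 CPM in KO to 1.11, 1.76 and 1.34 CPM (-3.76, SE 0.30, adjusted p = 7.8e-05, edgeR). Fxyd6 went from 42.0, 39.5 and 30.1 to 3.39, 4.22 and 2.45 CPM (-3.47, SE 0.27, adjusted p = 7.8e-05, edgeR), and Dpp4 from 68.0, 20.4 and 28.6 to 1.80, 2.46 and 3.25 CPM (-3.77, SE 0.58, adjusted p = 0.00275, edgeR). Their differences between KO and WT were -0.06 for Fxyd6 and -0.53 for Dpp4. Slc38a3 was not called without WT replicate 1. Among the largest rises, Htra3, a secreted protease, and Amz1, a metallopeptidase, were new. Amz1 rose from 5.57, 5.6 and 9.23 to 40.9, 33.2 and 56.0 CPM (2.68, SE 0.18, adjusted p = 3.08e-05, edgeR). Esm1, the endothelial proteoglycan endocan, rose from 100.3, 57.7 and 42.2 to 257, 143 and 120.0 CPM (1.4, SE 0.12, adjusted p = 0.000157, edgeR).

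Among components of the mTOR pathway, 2 of 32 tested genes were called higher and 4 lower in KO+R (3.11% and 3.8% of all genes). Rictor, a core subunit of mTORC2, rose from 30.1, 28.2 and 33.5 to 42.6, 67.7 and 55.2 CPM (0.84, SE 0.15, adjusted p = 0.00539, edgeR). Prr5, which binds RICTOR, fell from 68.7, 42.4 and 47.3 to 24.3, 10.5 and 16.2 CPM (-1.67, SE 0.21, adjusted p = 0.000787, edgeR). Ddit4, an mTORC1 inhibitor (-1.06), Deptor (-1.76) and Pik3r1 (-0.66) were the other lower genes, and Deptor was not called without WT replicate 1. Of 33 ATF4 targets, 6 were called lower (3.8% of all genes) and none higher: Stc2, Vldlr, Cth, Slc7a5, Ddit4 and Sesn2, of which Cth was not called without WT replicate 1. Slc7a5, the light chain of the large neutral amino acid transporter, fell from 96.2, 112 and 104 CPM in WT and 100.2, 87.3 and 93.4 CPM in KO to 24.4, 34.9 and 36.0 CPM (-1.70, SE 0.35, adjusted p = 0.0107, edgeR). None of 20 cytosolic aminoacyl-tRNA synthetase genes was called by edgeR, with 5 at an unadjusted p under 0.05. Bcl2l11, the pro-apoptotic gene of BIM, was new and lower, from 88.9, 35.4 and 60.9 to 29.4, 10.8 and 16.0 CPM (-1.75, SE 0.15, adjusted p = 0.000119, edgeR), while Bax (-0.34) and Tnfrsf10b (-0.33) stayed within 1.5-fold. Of 27 autophagy genes, 1 (Map1lc3a, 0.81) and of 34 lysosomal genes 1 (Gpnmb, 1.01) were called higher, a share near the 3.11% of all genes, and Gpnmb was not called without WT replicate 1.

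Of the 61 enlarged genes, 53 were lower and 8 higher than WT, with a median difference of 2.76 (log2) in KO+R and 0.84 in KO. Igfbp3, a carrier of insulin-like growth factors, went from 1286, 378 and 1093 CPM in WT and 746, 151 and 309.7 CPM in KO to 81.4, 22.5 and 44.3 CPM (-4.20, SE 0.53, adjusted p = 0.000828, edgeR). Adora2a, an adenosine receptor gene, went from 21.9, 13.2 and 20.01 CPM through 8.60, 5.24 and 6.13 CPM to 1.11, 0.615 and 1.25 CPM (-4.22, SE 0.37, adjusted p = 0.000119, edgeR). The stanniocalcin gene Stc2 fell from 38.3, 17.5 and 29.1 to 3.28, 3.24 and 1.74 CPM (-3.37, SE 0.34, adjusted p = 0.000272, edgeR), with 21.1, 8.69 and 5.82 CPM in KO. Sntg2 had 155 counts over the WT and 3 over the KO+R libraries, a ratio of 48.9 with a 95% counting interval of 16.4 to 239.5. Dll4, the Notch ligand of tip cells, was lower by -1.72 and the chemokine receptor gene Cxcr4 by -1.77 (adjusted p = 0.00419 and 0.000373, edgeR), and 4 of 21 Notch and arteriovenous genes were called lower (3.8% of all genes), with Efnb2 and Unc5b, and none higher. Among the enlarged rises, Ccn3, a matricellular growth regulator, went from 11.5, 8.63 and 9.68 CPM in WT and 24.2, 20.3 and 31.4 CPM in KO to 70.8, 121 and 102 CPM (3.29, SE 0.33, adjusted p = 0.000268, edgeR). Cyp1a1 (2.60), Kank4 (2.36), Tmem151a (2.22), Mustn1 (2.18) and Plekhh2 (2.10) were the other enlarged genes among the largest rises.

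**Figure D5:**
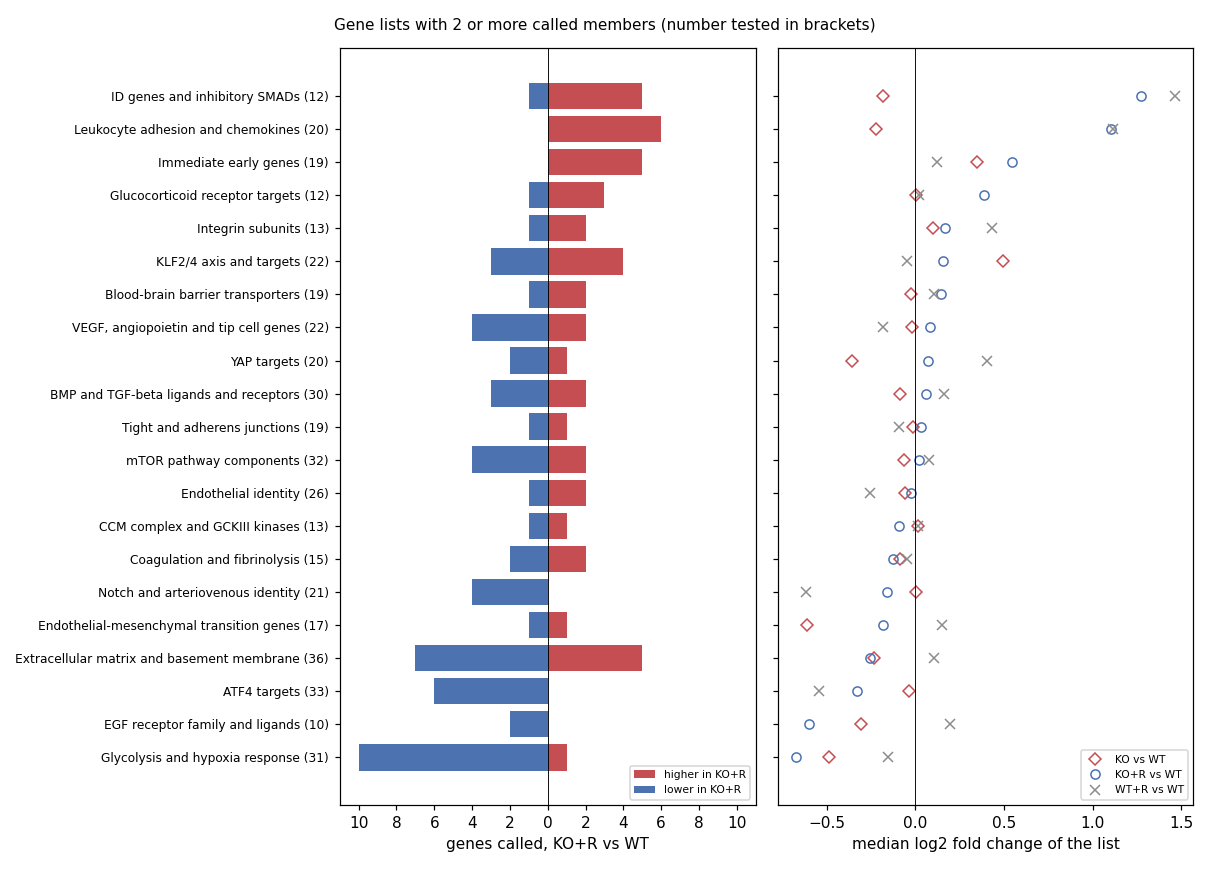
Left, genes called higher (red) and lower (blue) in KO+R against WT in the 21 gene lists with 2 or more called members; right, median log2 fold change of each list in KO (diamonds), KO+R (circles) and WT+R (crosses) against WT. Among these lists, glycolysis has the lowest KO+R median at -0.67 and the ID genes and inhibitory SMADs the highest at 1.27.

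Cell cycle genes moved without calls between KO+R and WT. Of 37 genes of DNA replication and 36 of mitosis, none was called by edgeR, with 2 and 0 at an unadjusted p under 0.05. Their median differences from WT were -0.41 and -0.49 in KO+R and 0.66 and 1.00 in KO, and between KO+R and KO they were -1.03 and -1.56, where 14 and 9 genes were called. The part of a changed share of dividing cells in the other results was not tested. Of the endothelial identity genes, 2 of 26 were called higher (Eng and Flt1) and Ets1 lower, against 3.11% and 3.8% of all genes. In the other lists of the endothelial barrier, Cldn3 (1.95, overlapping libraries, 71.96% of exonic bases shared) and Cldn1 (-2.69) were the called genes among 19 of tight and adherens junctions, and Slc6a6 (1.62), Slc40a1 (0.88) and Slc7a5 among 19 transporters of the blood-brain barrier. Slc40a1 was not called without WT replicate 1, at 0.72 (adjusted p = 0.142, edgeR). Of 24 tested genes of cholesterol synthesis, Dhcr7 (-0.71) was called. The share to set beside the junction, transporter and cholesterol lists is the 6.91% called in either direction over all genes. Immediate early genes were called higher in 5 of 19 (3.11% of all genes) and lower in none. No gene was called by edgeR among fatty acid synthesis (15 tested), NRF2 and glutathione (19), endoplasmic reticulum chaperones (19) and SOX factors (9), with 6, 5, 0 and 1 at an unadjusted p under 0.05. Of the markers of other cell types, Csf1r (20 counts over the WT and 1 over the KO+R libraries) and Nefm (-2.89) were called lower. The Csf1r call held in 3 of 17 alternative fits (adjusted p up to 0.312), and WT replicate 1 held 1 of its 20 WT counts.

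The 168 genes the study listed as changed between KO and WT were chosen on these WT and KO libraries, so their direction is not independent of the WT values. In KO+R against WT, 100 of them (59.5%) were over 1.5-fold the same way, 61 were within 1.5-fold and 7 were over 1.5-fold the opposite way, where 21.8% of all tested genes were over 1.5-fold in either direction. The test called 61 the same way and 3 the opposite way. The median difference along the KO direction was 0.82 in KO+R and 1.13 in KO. Of the 104 genes higher in KO, 62 stayed over 1.5-fold, and of the 64 lower in KO, 38 did. Without WT replicate 1 the count over 1.5-fold the same way was 120.

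The libraries of KO+R and WT did not overlap in 3347 genes (22.6% of those tested), and among the 1026 called genes were 314 of the 347 new, 205 of the 270 kept, 60 of the 61 enlarged and 17 of the 22 crossed genes without overlap. With 3 libraries a group, an exact permutation test of a single gene cannot give a two-sided p under 0.1, so the calls rest on the spread shared across genes. In WT cells rapamycin gave 677 called genes (4.56%), with the same WT libraries as reference. Side by side, the log2 differences from WT in KO+R and WT+R were 1.59 and 1.83 for Id3, 2.31 and 1.97 for Smad6, 3.06 and 3.87 for Icam1, -4.63 and -3.25 for Bmp2, and -2.58 and -2.94 for Nos2. For kept genes they were 3.03 and 0.78 for Xdh, 1.5 and 0.03 for Klf4, -1.12 and 0.16 for Lamb1, -2.69 and -0.68 for Cldn1 and -1.78 and -0.53 for Egln3. These picked genes do not stand for the class. Of all 270 kept genes, 143 (53.0%) were over 1.5-fold from WT the same way in WT+R as in KO+R. The share was 85.3% for new, 96.7% for enlarged and 100% for crossed genes, and 19% for all tested genes. Between WT+R and WT, 53 of the 61 enlarged and 18 of the 22 crossed genes were called. KO+R and WT+R differed in 14 called genes (0.0944%). No gene was called for a rapamycin effect that differed between KO and WT cells (0%, edgeR's quasi-likelihood test), with 287 at an unadjusted p under 0.05 and 7 called by DESeq2.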

How the data were processed

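Poly(A) RNA of mBMEC cultures was sequenced as unstranded paired-end reads. The authors deposited 1 Salmon table a library, with the expected count, the TPM and the effective length of each transcript. Per the labels, the processing tools include Salmon 1.5.2 and Trim Galore 0.6.7, and the study's methods describe STAR and HTSeq on GRCm39; which transcript index was used was not given in the sources used here. The deposited expected counts were not normalized between libraries. The deposited effective lengths served only as offsets in an alternative, and the deposited TPM values only chose the most abundant transcript of a gene for promoter windows.

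Of 140789 transcripts, 139544 (99.12%) had a gene in GENCODE vM39. Counts were summed per gene, rounded, filtered with filterByExpr (14838 of 27228 genes with any count remained) and scaled with TMM. All 16 libraries were fitted with edgeR 4.0.16 (R 4.3.3) as 6 groups with the replicate number as a block, with 8 residual degrees of freedom. KO+R and WT libraries of the same number deviated together from their group means (r = 0.54, 0.49 and 0.15 across genes, against -0.49 to 0.10 for different numbers). Deviations from a mean cancel within a group, so the values for different numbers are not an independent baseline. For replicate 3 the r of 0.15 was near the 0.10 of KO+R replicate 3 with WT replicate 2. The numbers were taken to pair the libraries. The pairing comes from the values and the numbers in the labels, and replicates are separate cell cultures. The biological coefficient of variation was 19.0% with and 32.3% without the block. Counting error was small beside this for all but the lowest genes; confidence and counting intervals are at 95%, and the counting intervals, from exact binomial limits, cover counting error only. The test was tried on simulated data first.

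Named genes were the 15 largest rises and 15 largest falls called with a mean of at least 1 CPM, no overlap of libraries and under 10% of exonic bases shared with another gene; up to 8 genes of each class on the same terms; the genes the study names; up to 6 called and some uncalled members of each of 43 gene lists; and 5 genes with the smallest interaction p. Outside this rule, and chosen after their values were seen, are the genes called between KO and WT and the further called list members Pgk1, Eno1, Ldha, Pgam1, P4ha1 and Mef2a. The members and lists were chosen with earlier results of these data known, and 1 list is the study's own. The alternatives were limma-voom 3.58.1, DESeq2 1.42.0, other scaling, filters, offsets and thresholds, fewer libraries and leaving out each library or replicate number. Columns of other samples left unused numbered 0. A few genes that meet the naming rule are not reported here.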

Additional observations from a re-analysis of the deposited data

Results flagged for a closer look

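In 3 named genes every KO pair and every WT pair of libraries moved in opposite directions with rapamycin. Slco2a1 changed by -0.41 on the log2 scale in KO and by 0.71 in WT cells, with an interaction adjusted p of 1 by edgeR's quasi-likelihood test. Lhx6, a homeobox gene, changed by -0.49 in KO and by 1.22 in WT cells (edgeR, adjusted p = 0.452). Atp8a1, a phospholipid flippase gene, changed by -0.15 in KO and by 0.18 in WT cells, with an adjusted p of 1 (edgeR). None of the 3 differences passed the threshold after correction over all genes, and only 2 of the 3 cultures had a WT+R library.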

How the results depend on the processing

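The count of genes called between KO+R and WT was between 840 and 1380 with 6 or 9 libraries only, other scaling, filters, limma-voom, length offsets or DESeq2 with the block, and 739 with DESeq2 without it. It fell to 214 when the test was made against the 1.5-fold threshold itself and to 373 without the replicate block. Without this block the counts were 1 for KO against WT, 224 for KO+R against KO and 207 for WT+R against WT, with 127 new, 97 kept and 0 returned genes and 48 called members of the lists. The paired fit was kept because the comparison was set up by replicate number, although the pairing of replicate 3 was weak in the values. The test against 1.5-fold gave 1, 116 and 125 for the same 3 comparisons. The count for KO against WT was unsteady, at 135 with 9 libraries, 397 with DESeq2 and the block, 65 with DESeq2 without it, 56 with limma-voom and 118 without a filter. KO+R against KO gave 1141 with 9 libraries and 1127 and 471 with DESeq2 with and without the block. New genes numbered 521 with 9 libraries. Returned genes numbered 25 with 9 libraries, 66 with DESeq2 and the block, 12 with limma-voom, 19 without a filter and 3 with length offsets. The interaction gave 7 genes with DESeq2 and the block, 1 without the block and 1 without a filter.

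Leaving out each library or replicate number in turn gave 75 to 931 genes for KO+R against WT, 0 to 66 for KO against WT, 5 to 896 for KO+R against KO and 9 to 648 for WT+R against WT. It gave 3 to 300 new, 39 to 299 kept and 0 to 10 returned genes, 16 to 104 called list members and 70 to 122 genes of the study's list over 1.5-fold the same way. The lowest counts of called, new and kept genes were without replicate number 2. New genes numbered 220 without KO+R replicate 1, 186 without KO+R replicate 3, 169 without replicate number 1 and 118 without number 3, and kept genes 166 without KO+R replicate 2, 116 without KO+R replicate 3 and 99 without WT replicate 3. With libraries or replicate numbers left out, Pdcd10 stayed lower, from -2.26 to -1.32. It missed the threshold without replicate number 2 (-1.59) or 3 (-1.42), and without any single library other than WT replicate 1. Pdcd10 was also lower but missed the threshold with 6 libraries (-1.62), limma-voom (-1.63), length offsets (-1.22) and against 1.5-fold (-1.78).

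The direction turned only in genes without a call. Nos3 was 0.037 with 6 libraries, 0.0097 with 9, 0.051 with DESeq2 without the block, 0.023 with limma-voom and 0.035 without the block, and -0.37 to 0.34 when libraries were left out. The fitted Kif14 value, which rests on 1 count a group, was -1.49 with length offsets and -1.13 to 1.19 when libraries were left out. In the same fits Gatm ranged from -0.19 to 0.33, Ccdc141 from -0.054 to 0.55, Adamts1 from -0.95 to 0.23, Cyp26b1 from -1.06 to 0.028 and Foxc1 from -0.23 to 0.0085. The cause of these changes was not tested. DESeq2 without the block was chosen after seeing the data. Depth limits the lowest genes, such as Kif14, Csf1r, Duox2 and Sntg2.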
